A study of Mus musculus with 6 samples.

Results

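The TIF1 family (transcriptional intermediary factor 1) was followed in mouse cerebellum through its 4 genes, Trim24, Trim28, Trim33 and Trim66, out of 46983 genes in the count tables. The family was chosen from these data: Trim66 had been picked for its difference between the groups, and the other members were added as its relatives by name. RNA sequencing covered 6 C57BL/6J mice at postnatal day 60, in 2 groups of 3. All 6 animals carried Tie2-Cre, a recombinase driven by a promoter that is active in endothelial cells and part of the blood lineage. The WT animals were Tie2-Cre Slc7a5 fl/+, with 1 floxed allele, so they are not free of Cre or of the floxed allele, and the Slc7a5-KO animals were Tie2-Cre Slc7a5 fl/fl. Slc7a5 encodes LAT1, the carrier of large neutral amino acids at the blood-brain barrier.

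TIF1 proteins are chromatin regulators that carry an N-terminal tripartite motif and, at the C-terminal end, a PHD finger and a bromodomain, a pair of modules that in TRIM24 and TRIM33 reads histone H3 tails and in TRIM28 acts as a SUMO ligase. TRIM28, also called KAP1, is the shared corepressor of the KRAB zinc finger proteins, which bind DNA and through it recruit the histone methyltransferase SETDB1 and heterochromatin protein 1. TRIM24 is a coregulator of nuclear receptors such as the retinoic acid receptors, TRIM33 acts in TGF-beta signalling by binding Smad proteins, and TRIM66 is an HP1-binding member best known from the mouse testis.

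Reads assigned to genes ran from 13438182 to 34160856 per library, and Slc7a5-KO replicate 3 was the shallowest. Slc7a5 reads were not lower in the Slc7a5-KO group than in WT, and the ranges overlapped. The 3 libraries labelled Slc7a5-KO, called KO-labelled from here on, held 164, 59.4 and 118 CPM (read counts scaled to library size and between libraries) for this gene, and WT held 72.0, 66.3 and 43.2 CPM (log2 0.91 ± 0.42 SE, edgeR adjusted p = 0.84). Leaving out KO-labelled replicate 2, the lowest of its group, brought it past the threshold as higher (log2 1.22, edgeR adjusted p = 0.010). Leaving out any other single library did not, and without KO-labelled replicate 1 the value was 0.55. Which exons were floxed is not stated in the labels, and every direction below follows the labels. Markers of granule neurons, Purkinje cells, astrocytes, oligodendrocytes, microglia and endothelium were all detected, as the cerebellar label asks. In bulk tissue, fewer cells of a type and less RNA per cell cannot be told apart.

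Trim66 was the member whose level followed the group labels. WT replicates 1 to 3 had 36.6, 29.45 and 38.1 CPM, from 1296, 816 and 1053 reads. The KO-labelled replicates had 61.2, 59.95 and 71.6 CPM, from 1978, 1604 and 974 reads. All 3 libraries labelled Slc7a5-KO lay above all 3 WT libraries, and the lowest of them was 1.57 times the highest WT library. The group means were 34.7 ± 4.64 CPM in WT, against 64.3 ± 6.39 CPM in the KO-labelled libraries (SD, n = 3 each), a fold of 1.85 (log2 0.89 ± 0.16 SE). These values chose the gene, so they are given as a description with no test.

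**Figure D1:**
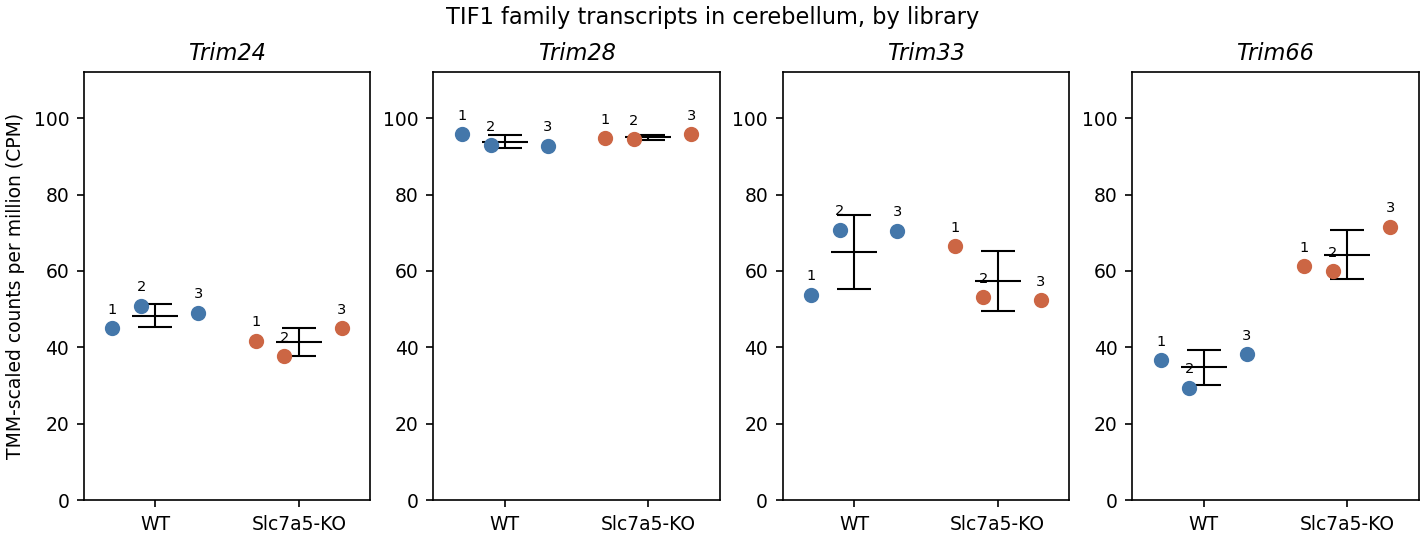
TMM-scaled CPM of the 4 TIF1 genes (y axis, from 0) in WT (blue) and Slc7a5-KO (orange) libraries. Each point is 1 library with its replicate number, and the bars are the mean and SD of 3 libraries. Trim66 is the panel in which the groups lie apart, at 29.45 to 38.1 CPM and 59.95 to 71.6 CPM, while Trim28 stays between 92.7 and 95.8 CPM in all 6 libraries.

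Trim28, the KRAB corepressor, was the steadiest member. It stood at 95.8, 92.9 and 92.7 CPM in WT, against 94.7, 94.4 and 95.8 CPM in the KO-labelled libraries, and the ranges overlapped. The means were 93.8 ± 1.74 and 95.0 ± 0.74 CPM (SD, n = 3 each; log2 0.02 ± 0.13 SE). Its reads ran from 1303 to 3391 per library, for a counting error of 1.72% to 2.77%.

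Trim24, the nuclear receptor coregulator, stood at 44.95, 50.9 and 49.1 CPM in WT, against 41.8, 37.7 and 45.0 CPM in the KO-labelled libraries. The ranges met at their edges, where KO-labelled replicate 3 (44.99) lay just above WT replicate 1 (44.95). The means were 48.3 ± 3.04 and 41.5 ± 3.67 CPM (SD, n = 3 each; log2 -0.22 ± 0.15 SE). The lower mean came with a standard error that is most of the difference.

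Trim33, the Smad-binding member, stood at 53.7, 70.7 and 70.4 CPM in WT, against 66.4, 53.1 and 52.4 CPM in the KO-labelled libraries. In each group 1 library lay with the other group, WT replicate 1 among the low values and KO-labelled replicate 1 among the high ones. The means were 64.9 ± 9.75 and 57.3 ± 7.90 CPM (SD, n = 3 each; log2 -0.18 ± 0.16 SE). Over the family, 1 of 4 members passed a false discovery rate of 0.05 by edgeR, where 0.0475% of the 16851 genes tested did. Likewise 1 of 4 separated the groups, upward, where 11.5% of tested genes separated them in either direction and 5.93% upward. Because this comparison chose the family, nothing is read from either count.

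In the authors' deposited table, made from the same libraries, the unshrunken log2 fold changes were 0.88 for Trim66, 0.01 for Trim28, -0.23 for Trim24 and -0.18 for Trim33. That table's adjusted p was under 0.05 for 1 of the 4, Trim66, and for 0.9% of the 14561 genes with an adjusted p in the authors' deposited table.

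Trim66 was also higher against its own relatives within each library, a measure in which the scaling between libraries cancels. There were 0.382, 0.317 and 0.411 Trim66 reads per Trim28 read in WT replicates 1 to 3, and 0.647, 0.635 and 0.748 in the KO-labelled libraries. The means were 0.370 ± 0.0482 and 0.676 ± 0.0618 (SD, n = 3 each). Against Trim24 the ratio went from 0.723 ± 0.127 to 1.55 ± 0.0722, and against Trim33 from 0.547 ± 0.133 to 1.14 ± 0.223. All 3 ratios separated the groups, which the choice of Trim66 largely fixes, so they are a description as well.

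Levels between genes were compared per kb of exon, with the union of annotated exons as the length. Trim28 was the most abundant member in every library, at 22.6 ± 0.42 CPM per kb in WT and 22.8 ± 0.18 in the KO-labelled libraries (SD, n = 3 each). In WT, Trim33 (6.62 ± 0.99 CPM per kb) and Trim24 (5.67 ± 0.36) came next and did not differ beyond their spread, and Trim66 was lowest at 3.43 ± 0.46. In the KO-labelled libraries, Trim66 (6.35 ± 0.63 CPM per kb) and Trim33 (5.84 ± 0.81) did not differ beyond their spread, and Trim24 stood at 4.87 ± 0.43, with each of its 3 values below the lowest of Trim33. Trim66 thus made up 9.67%, 7.57% and 9.65% of the family's summed level per kb in WT and 14.9%, 15.4% and 17.4% in the KO-labelled libraries. Averaged over all 6 libraries, 56.6% of tested genes were below Trim66 in level per kb, 58.5% below Trim24, 62.8% below Trim33 and 88.8% below Trim28.

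The order of the lower 3 members depends on the length used. With the principal transcript in place of the union of exons, the mean over 6 libraries was 11.2 CPM per kb for Trim66, 11.1 for Trim24 and 6.89 for Trim33, against 29.1 for Trim28. Trim28 was highest under each length tried, and the counts do not tell which transcripts were read.

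**Figure D2:**
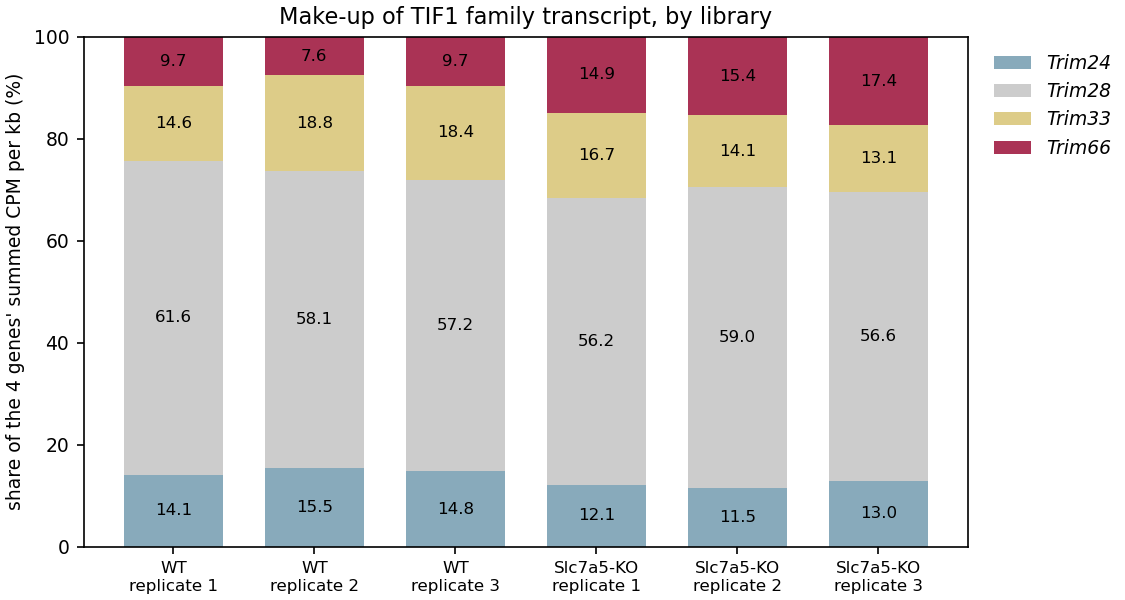
Share of each TIF1 gene in the family's summed CPM per kb of exon (y axis, percent), with 1 bar per library. The Trim66 part is 7.57% to 9.67% in the WT libraries and 14.9% to 17.4% in the KO-labelled libraries, and the Trim28 part is the largest in every bar.

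The 4 genes lie apart in the genome (GRCm38). Trim66 (ENSMUSG00000031026.14) spans chromosome 7, 109449006 to 109508134, on the minus strand, and Trim28 (ENSMUSG00000005566.13) spans chromosome 7, 12999114 to 13031035, on the plus strand. Trim24 (ENSMUSG00000029833.17) lies on chromosome 6, 37870811 to 37966296, and Trim33 (ENSMUSG00000033014.12) on chromosome 3, 103279293 to 103358775, both on the plus strand. The principal transcripts have 20, 17, 19 and 20 exons in Trim66, Trim28, Trim24 and Trim33, with coding lengths of 4032, 2502, 3153 and 3420 bases. The Trim28 annotation overlaps Zbtb45 on the opposite strand, and strand-specific counts keep their reads apart. The annotated Trim28 span begins upstream of the gene's RefSeq promoter window (13023902 to 13024151), and the Zbtb45 overlap lies in that upstream part.

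The promoter windows of Trim66, Trim28 and Trim24 are shown to set the member that differed between the groups beside relatives that overlapped. They are the 250 bases before the start of transcription in RefSeq (GRCm38.p6), 5′ to 3′ on the gene's own strand, with motif matches in capitals. For Trim24, which has 2 windows, the more upstream is given. Trim33 was not matched.
Trim66, chr7:109508135-109508384, minus strand: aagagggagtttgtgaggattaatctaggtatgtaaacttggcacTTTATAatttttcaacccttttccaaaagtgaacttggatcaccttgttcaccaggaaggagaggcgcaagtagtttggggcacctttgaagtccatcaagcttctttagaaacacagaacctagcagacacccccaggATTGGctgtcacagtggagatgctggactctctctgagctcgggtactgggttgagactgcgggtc
Trim28, chr7:13023902-13024151, plus strand: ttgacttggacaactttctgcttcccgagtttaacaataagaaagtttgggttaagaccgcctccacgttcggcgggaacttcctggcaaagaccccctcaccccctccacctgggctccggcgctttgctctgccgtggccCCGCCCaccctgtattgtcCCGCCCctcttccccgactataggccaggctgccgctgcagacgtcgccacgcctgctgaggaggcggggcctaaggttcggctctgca
Trim24, chr6:37870561-37870810, plus strand: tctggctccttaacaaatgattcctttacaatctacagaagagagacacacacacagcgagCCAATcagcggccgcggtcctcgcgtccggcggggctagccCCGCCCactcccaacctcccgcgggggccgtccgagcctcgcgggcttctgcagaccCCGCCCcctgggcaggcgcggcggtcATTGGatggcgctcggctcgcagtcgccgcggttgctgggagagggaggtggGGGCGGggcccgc

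The Trim66 window was poor in G and C and in CpG dinucleotides, while the windows of Trim28 and the more upstream one of Trim24 were rich in both. G and C made up 47.2% of the Trim66 window, 62.0% of that of Trim28 and 69.6% of that of Trim24, beside a median of 52.4% over 32841 windows of the same length. The CpG counts were 3, 17 and 27, beside a median of 6, and 29.0%, 76.5% and 91.4% of windows had fewer. The more downstream window of Trim24 was poorer than that of Trim66, with 46% G and C and 1 CpG, so the contrast holds for the upstream start alone.

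A set of 6 motifs was searched on both strands, and no 2 matches in the windows shown overlapped. The CCAAT box (CCAAT, in 33.9% of all windows) matched once in Trim66, on the opposite strand 66 bases before the start, and 2 times in Trim24. The GC box (GGGCGG, in 32.7%) matched 2 times in Trim28, 3 times in Trim24 and not in Trim66. The TATA box letters (TATAAA, in 12.4%) matched once, in Trim66, on the opposite strand 205 bases before the start. The C/EBP-ATF response element (TGATGNAA, in 3.45%), the cyclic AMP response element (TGACGTCA, in 1.55%) and the E-box (CACGTG, in 6.02%) were not in any of these 3 windows, while the more downstream window of Trim24 held 1 TGATGNAA match. A match is a description of letters only.

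No gene next to Trim66 passed by edgeR, where 0.0475% of all genes tested did. Of the protein-coding genes within 100 kb, St5, 15.8 kb beyond its start and on the same strand, stood at 46.9, 29.2 and 41.9 CPM in WT, against 55.5, 44.6 and 35.3 CPM in the KO-labelled libraries (log2 0.20 ± 0.20, edgeR adjusted p = 0.95). Rpl27a, a ribosomal protein gene 11.0 kb beyond the start on the other strand, had log2 -0.32 ± 0.24 (edgeR adjusted p = 0.92), and its level is uncertain because ribosomal protein genes have near-identical copies. Stk33, a kinase gene 9.9 kb past the 3′ end, was low, at 1.59 ± 1.39 and 1.23 ± 0.50 CPM (SD, n = 3 each). Around the annotated span of Trim28, which begins upstream of its RefSeq start, 10 of 13 protein-coding genes were tested and none passed by edgeR. The smallest unadjusted p there was for Chmp2a, an ESCRT-III subunit 1.0 kb away, at 47.6 ± 7.49 and 34.1 ± 4.61 CPM (SD, n = 3 each; log2 -0.48 ± 0.17, edgeR adjusted p = 0.65). Around Trim24, Svopl had at most 21 reads and Atp6v0a4 at most 25, and no protein-coding gene lay within 100 kb of Trim33.

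The partners through which the family silences chromatin showed no call, where 0.0475% of all genes tested did by edgeR. At that share, no call in a list this short says little about its genes. Of 30 listed KAP1 partners, 27 were tested, and by edgeR none passed, 14 were above 0 and 13 below, with a median log2 fold change of 0.0063 beside 0.0022 over all genes tested. That median was -0.11 without KO-labelled replicate 1 and between -0.05 and 0.03 with any other library left out. None had an unadjusted p under 0.05, where 6.22% of all genes did. The 2 with the smallest p were Resf1, a retroelement silencing factor (25.3 ± 4.86 and 19.3 ± 3.67 CPM, log2 -0.39 ± 0.21), and Smarcad1, a chromatin remodeller (log2 -0.30 ± 0.20), with edgeR adjusted p of 0.85 and 0.89. Setdb1, named for its role after its values were seen, stood at 44.8 ± 6.37 and 40.1 ± 3.95 CPM (SD, n = 3 each; log2 -0.16 ± 0.16). The HP1 genes, named likewise, had log2 -0.11 ± 0.24 (Cbx1), 0.0067 ± 0.40 (Cbx3) and -0.09 ± 0.13 (Cbx5).

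Over all genes tested, 0.0475% were called by edgeR and 6.22% had an unadjusted p under 0.05. The other silencing list, of the HUSH complex and histone H3 lysine 9 methyltransferases, held 9 tested genes of 11, with a median of -0.06 and none called by edgeR or under an unadjusted p of 0.05. The median changed sign with the library left out, from -0.09 without KO-labelled replicate 1 to 0.05 without KO-labelled replicate 3. Tasor and Tasor2 were not matched to a symbol. Its 2 genes with the smallest p were Mphosph8, a HUSH subunit (log2 -0.22 ± 0.21), and Morc2a (log2 0.12 ± 0.16). Of 7 KRAB zinc finger genes, the DNA-binding side of TRIM28 silencing, 6 were tested, with a median of -0.32 (-0.47 to -0.16 when 1 library was left out) and none called by edgeR, and 1 had an unadjusted p under 0.05. That was Zfp57, which guards imprinted loci, low at 3.36, 1.41 and 0.905 CPM in WT, against 4.40, 2.65 and 5.88 CPM in the KO-labelled libraries (log2 1.17 ± 0.54, edgeR adjusted p = 0.78). The Zfp57 ranges overlapped. Zfp932, which acts on endogenous retroviruses, had log2 -0.53 ± 0.30 (edgeR adjusted p = 0.85).

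**Figure D3:**
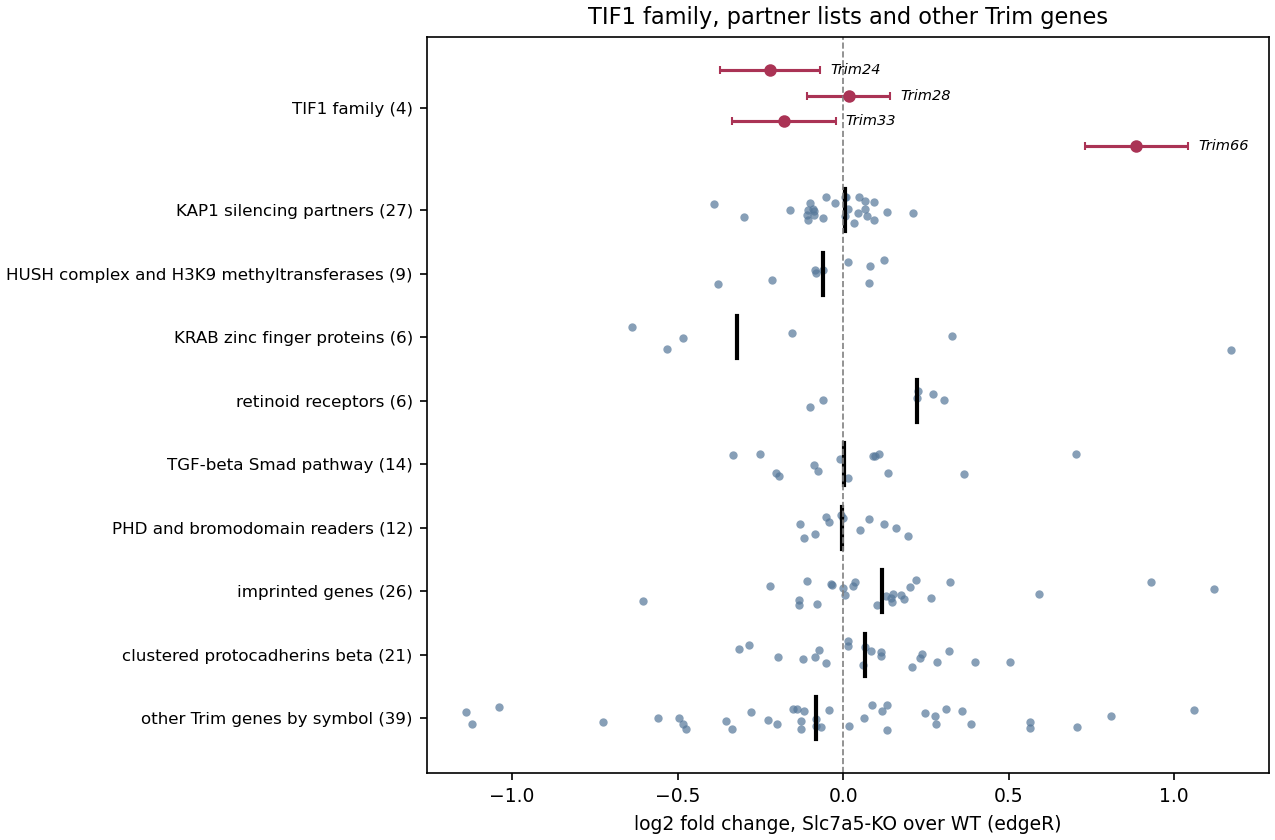
EdgeR log2 fold change, Slc7a5-KO over WT (x axis), for the TIF1 genes with their standard error (red) and for each tested gene of the partner lists (blue points, with the number tested in brackets). Black bars are list medians, which lie between -0.32 and 0.22. Trim66, a single gene, lies at 0.89, and other single genes shown reach from -1.14 (Trim12a) to 1.17 (Zfp57).

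Imprinted loci and the beta cluster of protocadherins, cell surface adhesion proteins of neurons, are among the known sites of TRIM28 action. No direction for the imprinted genes is taken from that role. Of 27 imprinted genes, 26 were tested and none passed by edgeR, with 18 above 0, 8 below and a median of 0.12 (0.05 without WT replicate 1 and 0.06 without WT replicate 2), and 2 had an unadjusted p under 0.05. Over all genes tested, 0.0475% passed by edgeR, 6.22% had such a p, and DESeq2 called 44 of 16851. Nnat, a small membrane protein of the brain, stood at 357, 433 and 348 CPM in WT, against 487, 583 and 646 CPM in the KO-labelled libraries (log2 0.59 ± 0.14, edgeR adjusted p = 0.25), and it was the 1 gene of all these lists called by DESeq2, while limma-voom called 0. Dlk1, a Notch ligand relative, stood at 22, 12.1 and 27.9 CPM and 28.2, 37.1 and 53.2 CPM (log2 0.93 ± 0.29, edgeR adjusted p = 0.59). Both separated the groups upward, as did Peg3, named after its values were seen. That is 3 of 26, beside 5.93% of all genes separated upward and 11.5% in either direction. The 21 tested beta protocadherins had a median of 0.07 (-0.02 to 0.13 when 1 library was left out), with none called by edgeR, and 1 of them, Pcdhb14, had an unadjusted p under 0.05 (log2 0.50 ± 0.24, edgeR adjusted p = 0.80). Pcdhb16, with the next smallest p, had log2 -0.32 ± 0.24 (edgeR adjusted p = 0.93).

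The signalling partners of the other members were not called either. Over all genes tested, 0.0475% were called by edgeR and 6.22% had an unadjusted p under 0.05. All 6 retinoid receptor genes, the receptors that TRIM24 works with, were tested, with a median of 0.22 (0.04 to 0.30 when 1 library was left out). Rxra had log2 0.31 ± 0.21 and Rara 0.22 ± 0.21 (edgeR adjusted p = 0.90 and 0.95). The 14 genes of the TGF-beta and Smad pathway, in which TRIM33 acts, had a median of 0.0039 (-0.08 without KO-labelled replicate 1 to 0.07 without KO-labelled replicate 3), and 1 had an unadjusted p under 0.05. That was Tgfb1, a TGF-beta ligand, at 6.53, 8.01 and 6.16 CPM in WT, against 10.6, 10.1 and 13.1 CPM in the KO-labelled libraries (log2 0.70 ± 0.27, edgeR adjusted p = 0.71). Smad1 had log2 0.36 ± 0.19 (edgeR adjusted p = 0.83), and Smad4, named for its role after its values were seen, 0.10 ± 0.16. No gene of either list passed by edgeR.

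Other chromatin readers with a PHD finger or a bromodomain were listed too. The 12 tested of 13 had a median of -0.0043 and a range of -0.13 to 0.20. Bptf, the reader of the NURF remodeller, had log2 0.20 ± 0.14 and Phf10 0.16 ± 0.15. None passed by edgeR, and none had an unadjusted p under 0.05, where 0.0475% and 6.22% of all genes tested did.

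The 5 genes most like Trim66 among 14693 genes with a mean of at least 1 CPM, by Pearson's r of log2 CPM over the 6 libraries, were Tnr (r = 0.988), Camta2 (0.988), Adcy4 (0.985), Ncam1 (0.979) and Astn1 (0.978). Tnr encodes tenascin-R, an extracellular matrix protein of the nervous system, Ncam1 a neural adhesion molecule, Astn1 a neuronal migration protein, Camta2 a transcription activator and Adcy4 an adenylyl cyclase. Each was lowest in WT replicate 2, as Trim66 was, and separated the groups, which the choice by likeness to Trim66 largely fixes. Ncam1 stood at 215, 196 and 221 CPM in WT, against 263, 275 and 270 CPM in the KO-labelled libraries. Their log2 fold changes were smaller than that of Trim66 except for Adcy4 (1.56 ± 0.63), which was near 1 CPM in WT, and none passed by edgeR (adjusted p 0.53 to 0.80). The 6 points share the group difference, and 191 genes had r over 0.9.

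**Figure D4:**
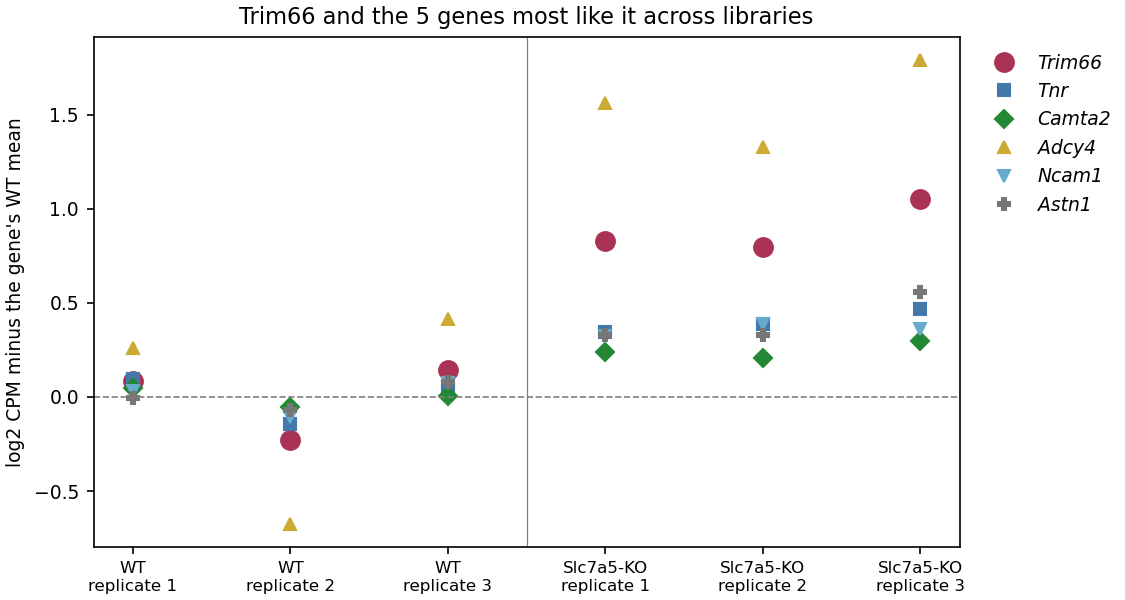
Log2 CPM minus the gene's own WT mean (y axis) in each library (x axis) for Trim66 and the 5 genes most like it by Pearson's r over the 6 libraries. All 6 genes are lowest in WT replicate 2, and Trim66 lies 0.80 to 1.05 above its WT mean in the KO-labelled libraries.

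The same search gave other genes for the other members. These did not separate the groups, which their likeness to members with overlapping groups largely fixes. They were Tnks2 (r = 0.993) and Pdrg1 (0.983) for Trim24, Cfap65 (0.991) and Hsd17b4 (0.986) for Trim28, and Pwp1 (0.995) and Ccdc82 (0.994) for Trim33, each over 6 libraries. For Trim24, Trim28 and Trim33, 124, 158 and 224 genes had r over 0.9. Trim28 moved only from 92.7 to 95.8 CPM, with a counting error of 1.72% to 2.77% per library, so its matches may follow counting noise. Tnks2, a tankyrase, stood at 117, 124 and 123 CPM in WT, against 111, 104 and 118 CPM in the KO-labelled libraries.

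Sex was not balanced between the groups, with 1 female and 2 males in WT and 2 females and 1 male labelled Slc7a5-KO, read from Xist. Trim66 stood at 29.45 CPM in the WT female and at 61.2 and 71.6 CPM in the females labelled Slc7a5-KO. In males it stood at 36.6 and 38.1 CPM in WT, against 59.95 CPM in the one labelled Slc7a5-KO. A higher level in both sexes was fixed once the groups did not overlap. With 1 WT female and 1 KO-labelled male, a difference between the sexes cannot be judged. With a sex term the Trim66 log2 fold change was 0.92.

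Among the 10 marker sums, only that of astrocytes and Bergmann glia separated the groups. Of all single genes tested 11.5% did, a share that is no direct background for sums of 8 genes. The part of any sum in the Trim66 values was not tested. No marker passed by edgeR in any of the 10 lists, where 0.0475% of all genes tested did. The 8 astrocyte and Bergmann glia markers summed to 3530 to 3916 CPM in WT, against 2921 to 3442 CPM in the KO-labelled libraries, without overlap. The 8 Purkinje markers summed to 5504 to 6740 and 3851 to 5714 CPM, and the 8 microglia markers to 185 to 255 and 239 to 290 CPM, both with overlap. Endothelial markers summed to 159 to 199 and 174 to 206 CPM, also with overlap. The granule neuron, oligodendrocyte and brainstem sums overlapped too. The forebrain neuron markers summed to 26, 32 and 30 CPM in WT, against 43.2, 90 and 27.9 CPM in the KO-labelled libraries. The choroid plexus sum was 35.3 CPM in KO-labelled replicate 2 and 2376 to 5714 CPM in the other 5 libraries, and without that replicate the Trim66 log2 fold change was 0.93. Since Trim66 is known from the testis, 8 male germ cell markers were summed too. They reached at most 2.32 CPM, and Prm1, Prm2, Tnp1, Tnp2 and Acrv1 had no read in any library.

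The Trim66 value was 0.78 without WT replicate 2 and 0.96 without WT replicate 3, the lowest and highest when 1 library was left out. The count of members called, from which nothing is read, no longer held Trim66 without any 1 of the WT replicates, without KO-labelled replicate 3, with the replicate block (0.89) or with scaling by library size alone (0.91).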

How the data were processed

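The deposited files are read counts per gene from 6 cerebellum libraries, not normalised by the authors, and the authors' own comparison. Per the submitters' processing notes, STAR 2.5.4 and GRCm38 (mm10) were used, and DESeq2 1.10.1 in R 3.2.4 for the comparison. Per the file headers, the latter gives a mean normalised count (signal), log2 fold changes, a Wald score, and a p-value. A stranded SENSE mRNA-Seq kit was used on total RNA, per the labels' protocols. No source used here states the annotation release or duplicate removal.

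The strand column with 94.8% to 95.8% of gene reads was used. Multimapping reads are listed as 0, and reads in no single gene (19.5% to 22.2%) were left out. Symbols matched 46488 of 46983 identifiers, with GENCODE M21 for coordinates. Genes passing filterByExpr (minimum count 10, total 15), 16851 with all 4 members, were scaled by TMM. The test was the robust quasi-likelihood test of edgeR 4.0.16 in R 4.3.3 (Benjamini-Hochberg, 0.05). This test was also run on counts simulated from its own fitted dispersions, which can check the code but not the model. Log2 CPM used a prior count of 2. Alternatives used DESeq2 1.42.0 and limma 3.58.1. Values after ± are SD for levels and SE for log2 fold changes.

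The members and lists were chosen with earlier results of these data known. Named were the members, Slc7a5, the 2 genes with the smallest p in each list (edgeR called none), neighbours within 100 kb, and the genes most like each member. Counting errors cover counting only. Same-numbered replicates did not deviate together, so no pairing was used. Results of 1 list are not reported here.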

Additional observations from a re-analysis of the deposited data

Results flagged for a closer look

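Reads on the strand opposite to Trim66, which the comparisons leave out, numbered 6 in KO-labelled replicate 1 and 4 in replicate 2, and 0 in KO-labelled replicate 3 and in the 3 WT libraries. This drew notice because the count is above that of every WT library. The same count for Trim28 was 14, 0 and 5 in WT and 0, 4 and 7 in the KO-labelled libraries, so a few opposite-strand reads occurred in both groups at another member. Beside 1978 and 1604 Trim66 reads on the gene's own strand, counting both strands left the Trim66 log2 fold change at 0.89.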

How the results depend on the processing

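The log2 fold changes of Trim24, Trim33 and Trim66 moved by less than the spread between replicates under all 15 alternatives. That of Trim28 did so too except for scaling by library size alone (0.047), which moved the median of all genes to 0.03. With each library omitted in turn, Trim66 lay from 0.78 to 0.96, Trim24 from -0.28 to -0.16, Trim33 from -0.30 to -0.11 and Trim28 from 0.0062 to 0.034. The count of 8 called genes became 71 with no filter on low counts, 44 by DESeq2, 16 with a sex term added after seeing the data, and 3 to 20 when 1 library was left out. The same omissions put Slc7a5 between 0.55 and 1.22. Per kb of the longest transcript, Trim24 stood at 11.1 and Trim28 at 29.1 CPM, the same as per kb of the principal transcript, which gave 11.2 CPM for Trim66 where the longest gave 5.35. The cause of the moved counts was not tested. With the replicate block 6 genes were called and Trim66 was at 0.89. Same-numbered WT and Slc7a5-KO libraries had correlations of -0.08, -0.09 and -0.03 in their deviations from the group means. No library correlated best with its own number. Every same-numbered pair was of opposite sex by Xist, so these values cannot exclude a pairing. Depth limits low genes such as Zfp57 and Stk33 most.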

Other observations

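The wider Trim gene family, taken by symbol after the data were seen, gave values of both signs. Of 63 other genes named Trim and a number, 39 were tested, and by edgeR none passed, with 17 above 0, 22 below and a median log2 fold change of -0.08. That median was -0.01 with no filter on low counts, -0.04 without WT replicate 3, -0.03 without KO-labelled replicate 1 and -0.03 with a sex term. By edgeR 0.0475% of all genes tested passed. An unadjusted p under 0.05 was reached by 5 of the 39, beside 6.22% of all genes tested. These were Trim46 (log2 0.36 ± 0.16), Trim25 (0.81 ± 0.38) and Trim62 (0.31 ± 0.15), which were higher, and Trim23 and Trim39 (-0.47 ± 0.21), which were lower. The groups did not overlap for 5 of 39, 1 higher (Trim32) and 4 lower, beside 11.5% of all genes tested in either direction. The 4 lower ones were Trim12a, Trim21, Trim23 and Trim30d. Trim23 had the smallest unadjusted p, with 53.7, 67.1 and 65.3 CPM in WT, against 49.9, 43.2 and 39.9 CPM in the KO-labelled libraries (log2 -0.48 ± 0.15, edgeR adjusted p = 0.59). The highest value was that of Trim29 (1.06 ± 0.94), and the lowest were those of Trim12a (-1.14 ± 0.80), Trim21 (-1.12 ± 0.58) and Trim30d (-1.04 ± 0.93), all 4 under 3 CPM in WT and with near-identical copies for Trim12a and Trim30d, so their counts are uncertain.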
